A study of Bos taurus with 16 samples.

Results

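IFI47 (ENSBTAG00000015727, merged locus XLOC_036551) encodes an interferon-inducible GTPase, and ENSBTAG00000004815 (XLOC_036550) is the Ensembl gene whose merged locus has the number just before it. These 2 genes, of 44265 features in the deposited tables, were taken by their identifiers. They were chosen with the 5-HTP against CON difference of IFI47 already known, so that contrast is described here without a test. RNA-Seq was done on subcutaneous fat and on the gluteus medius, a muscle of the rump, of 8 Holstein bull calves. The calves were aged 21 days at the start, and their milk replacer was supplemented for 10 days. The milk replacer of 4 calves (numbered 5 to 8) contained 5-hydroxytryptophan (5-HTP), the immediate precursor of serotonin, and that of the other 4 (numbered 1 to 4) contained saline (CON). Each tissue of each calf was 1 library, 16 in all, and the same calf numbers are used for both tissues. These are whole tissues, in which a change in the number of cells of a type and a change in RNA per cell cannot be told apart.

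The 16 libraries held between 17289845 and 28649548 counts. The 10 loci with the most counts took 5.55% to 7.59% of the counts in adipose tissue and 21.3% to 27.0% in muscle, so the scale between tissues depends on the normalization. The trimmed mean of M-values (TMM) multiplied the library sizes by 1.39 to 1.61 in adipose tissue and by 0.535 to 0.721 in muscle, the lowest in CON calf 1. CPM below means counts relative to these TMM-scaled library sizes (edgeR's CPM), with the factors set over all 16 libraries. IGFN1, a muscle protein gene, lay between 1392 and 6780 CPM in muscle. In adipose tissue it had no count in the 4 CON calves, while supplemented calves 5 to 8 had 8, 6, 0 and 8. None of the 8 adipocyte markers listed could be paired with a feature. CFD, which encodes adipsin, a complement protease made by adipocytes, could be paired, and in adipose tissue it was at 21.8 to 50.4 CPM for CON and 7.59 to 22.7 CPM for 5-HTP (logFC = -1.07, FDR = 0.767, likelihood ratio test of edgeR). It could be named because the study lists it for muscle, and its part in the results for adipose tissue was not tested.

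The immunity-related GTPases are a family of proteins that cells make after interferon reaches them. They bind to intracellular membranes, among them those of the vacuoles in which pathogens live, and are known for resistance to intracellular infection. Interferon gamma acts through the JAK and STAT proteins, which carry the signal from the receptor to the promoters of its target genes. ENSBTAG00000004815 has no symbol in the sources used here and its function is not stated in them. In the RefSeq annotation of the assembly ARS-UCD2.0, IFI47 stands between TRIM52 and OR2BB11 in the order of protein-coding genes, with RACK1, TRIM41 and TRIM7 beyond TRIM52. The annotation lists 8 transcripts for IFI47 and places 1 lncRNA gene inside its span. This is not the build of the counts (ARS-UCD1.2), and which of these genes ENSBTAG00000004815 overlaps was not determined. The sources used here do not say whether the reads were counted by strand, so reads of overlapping genes cannot be told apart.

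The study designed 1 pair of primers for IFI47, each of 20 bases, to measure it by qPCR in adipose tissue. On the RNA samples used for sequencing, the study reports that qPCR gave the direction of RNA-Seq and a similar log2 fold change. The primers are shown because they are the sequences by which the study identified this transcript apart from the sequencing. The table they come from labels the forward primer as 5′ to 3′ and the reverse primer as 3′ to 5′, and the letters stand here as listed.
IFI47 forward primer: gcacaactccaacagaagca
IFI47 reverse primer: ccagaatgtggctgtgattg

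IFI47 was close to absent in the adipose tissue of CON calves and present in that of every 5-HTP-supplemented calf. In CON calves 1 to 4, it had 15, 0, 0 and 4 counts, which are 0.446, 0, 0 and 0.138 CPM. Where 0 were counted, the expected count could still be up to 3 (counting error only). That is 0.12 CPM in CON calf 2 and 0.0991 CPM in CON calf 3. In 5-HTP-supplemented calves 5 to 8, it had 579, 406, 275 and 318 counts, which are 15.9, 11.1, 7.90 and 12.1 CPM. The lowest of the 4 supplemented calves lay 17.7-fold above the highest CON calf. The mean was 0.146 ± 0.210 CPM without 5-HTP and 11.8 ± 3.30 CPM with it (SD, n = 4), a logFC of 6.23 with a standard error of 0.65. From the summed counts of 19 and 1578, the ratio was 72.4, with an exact 95% interval of 46.2 to 121 that covers counting error only.

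In muscle, IFI47 had 0, 0, 4 and 0 counts in CON calves 1 to 4, so that only calf 3 had a value above 0, of 0.231 CPM. In 5-HTP-supplemented calves 5 to 8, it had 250, 127, 34 and 99 counts, which are 12.1, 8.01, 2.33 and 7.25 CPM. In muscle the gene passed the filter of at least 10 counts in 4 libraries only through these 4 calves. Calf 7 was the lowest of the supplemented calves and still lay 10.1-fold above CON calf 3. The mean of the 5-HTP-supplemented calves was 7.43 ± 4.01 CPM (SD, n = 4), at a logFC of 6.84 (standard error 0.89). The ratio from the summed counts of 4 and 510 was 138, and its counting interval ran from 53.5 to 508. Without calf 3 there was no CON count in muscle, and the ratio then has no upper bound. In the same libraries the muscle gene IGFN1 was at 1392 to 2445 CPM in 5-HTP-supplemented calves and at 2540 to 6780 CPM in CON calves. XLOC_017327, a merged locus that the study labels TTN (titin), was at 19.5 to 31.5 and 48.4 to 89.98 CPM. It has no Ensembl identifier, and how much of the titin gene it covers was not determined. Both loci could be named only through the study's list of genes that differed in these muscle libraries, so their direction was fixed by that choice. Their part in the results for muscle was not tested.

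ENSBTAG00000004815 was counted in every library, and its difference between groups was far smaller. In adipose tissue, CON calves 1 to 4 had 29.1, 26.6, 22.8 and 28.2 CPM, from between 638 and 979 counts. The 5-HTP-supplemented calves 5 to 8 had 46.4, 43.1, 38.9 and 36.01 CPM, from between 949 and 1688 counts. The groups did not overlap, and the lowest supplemented calf was 1.24-fold above the highest CON calf. The means were 26.7 ± 2.77 and 41.1 ± 4.58 CPM (SD, n = 4), a logFC of 0.62 with a standard error of 0.20.

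In muscle, ENSBTAG00000004815 was at 15.8, 14.8, 17.8 and 19.1 CPM in CON calves 1 to 4. The 5-HTP-supplemented calves 5 to 8 had 28.0, 28.0, 25.1 and 27.6 CPM, again with no overlap. The means were 16.9 ± 1.93 and 27.2 ± 1.37 CPM (SD, n = 4), a logFC of 0.69 with a standard error of 0.18. The study lists this gene among those that differed in muscle, and not among those that differed in adipose tissue. The supplemented calves lay within 1.11-fold of each other for this gene, whereas IFI47 in the same 4 muscle libraries varied 5.20-fold between calves 5 and 7. For both genes the values of all 4 supplemented calves lay above those of all 4 CON calves in both tissues. Values that do not overlap and are higher in 5-HTP-supplemented calves were found in 1.3% of the 20167 features tested in adipose tissue, in 1.37% of the 16878 tested in muscle, and in both tissues in 9 of 15696 features (0.0573%). The 2 genes were chosen by this contrast, so nothing is read from their being among the 9.

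**Figure D1:**
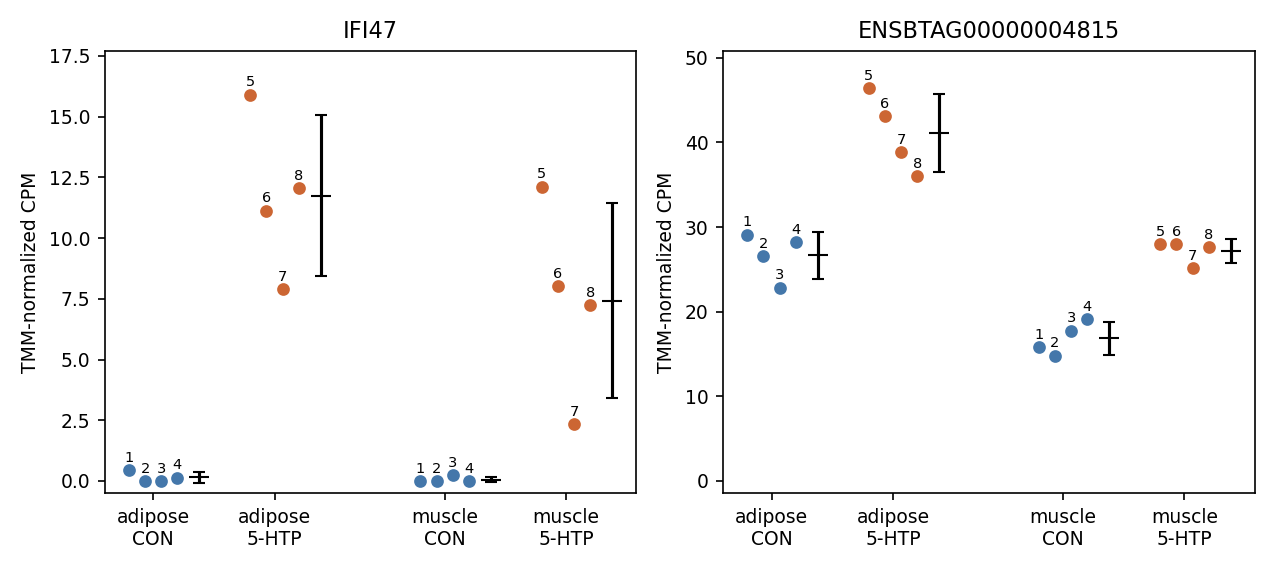
TMM-normalized CPM of IFI47 (left) and ENSBTAG00000004815 (right) in each library, by tissue and treatment; points are calves with their numbers (blue CON, orange 5-HTP), and bars show the mean and SD (n = 4). IFI47 lies at or below 0.446 CPM in all CON libraries and at or above 2.33 CPM in all 5-HTP libraries, and ENSBTAG00000004815 is present in all 16.

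The 2 loci have consecutive numbers in the merged transcript set, and their distance was not determined. Their counts were also added together. In adipose tissue, the sum was 26.8 ± 2.93 CPM for CON and 52.9 ± 7.09 CPM for 5-HTP, a ratio of 1.97. In muscle it was 16.9 ± 1.97 and 34.6 ± 5.26 CPM (SD, n = 4), a ratio of 2.04. Each gene alone separated the groups in both tissues, so the sum had to separate them too, and nothing is read from that. The highest CON value of the sum was 29.6 CPM and the lowest 5-HTP value 46.8 CPM in adipose tissue. In muscle these values were 19.1 and 27.5 CPM. The mean of ENSBTAG00000004815 alone was higher in 5-HTP-supplemented calves by 14.4 CPM (standard error 2.68) in adipose tissue and by 10.3 CPM (standard error 1.18) in muscle. Whether reads of 1 locus were counted at the other was not tested.

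The share of IFI47 in the counts of both loci needs no normalization. In CON calves it was 1.51%, 0%, 0% and 0.487% in adipose tissue and 0%, 0%, 1.29% and 0% in muscle. A count of 0 allows a share of up to between 0.434% and 1.39% in these libraries (3 counts of the summed counts). In 5-HTP-supplemented calves 5 to 8, the share was 25.5%, 20.5%, 16.9% and 25.1% in adipose tissue and 30.2%, 22.2%, 8.48% and 20.8% in muscle. The lowest of these, in the muscle of calf 7, had an exact binomial 95% interval of 5.94% to 11.6%. The highest upper bound among the CON libraries was 3.26%. These intervals cover counting error only, and nothing is read from the gap, since IFI47 was chosen by this contrast. The mean share was 22.0 ± 4.10% in adipose tissue and 20.4 ± 8.99% in muscle (SD, n = 4). The difference between the tissues was 1.57 ± 5.90 percentage points (SD, n = 4 calves), higher in adipose tissue in 2 of 4 calves (two-sided exact sign-flip permutation test, p = 0.75, where 4 calves cannot go below 0.13).

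**Figure D2:**
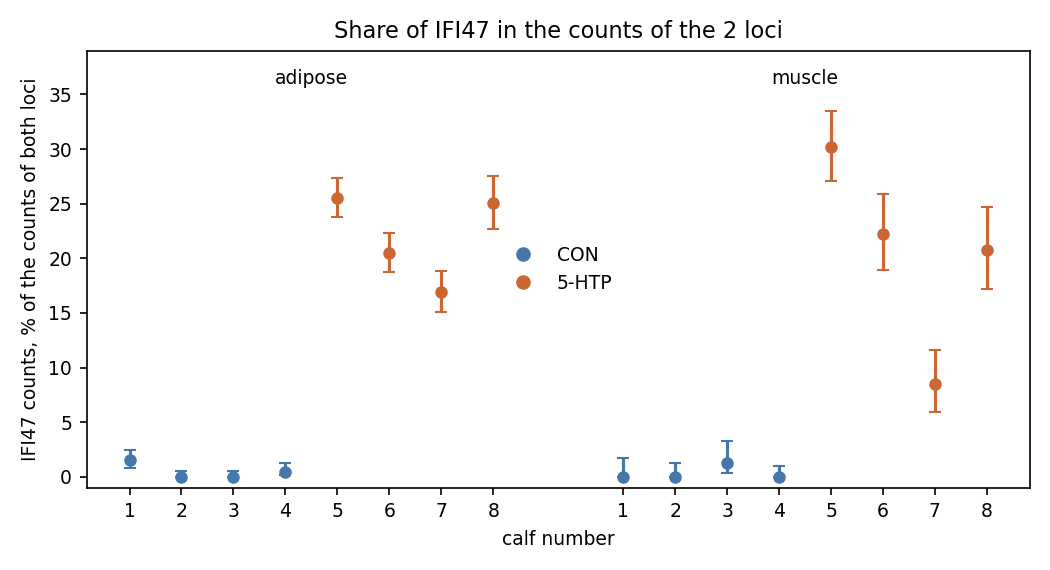
Counts of IFI47 as a percentage of the counts of IFI47 and ENSBTAG00000004815 together, for each calf in adipose tissue (left) and muscle (right); blue is CON, orange is 5-HTP, and bars are exact 95% binomial intervals, which cover counting error only. The 5-HTP libraries lie between 8.48% and 30.2% and the CON libraries at or below 1.51%, and calf 7 is the lowest 5-HTP calf in both tissues.

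Both genes were compared between the tissues, a contrast by which they were not chosen. ENSBTAG00000004815 was higher in adipose tissue than in muscle in each of the 8 calves. The ratio of adipose to muscle CPM lay between 1.29 and 1.84 in CON calves and between 1.30 and 1.66 in 5-HTP-supplemented calves. The mean within-calf difference was 0.62 ± 0.19 on the log2(CPM + 0.1) scale (SD, n = 8; two-sided exact sign-flip permutation test, p = 0.00781, the smallest that 8 calves allow). On this scale 23.5% of the 21849 features tested over all libraries were higher in adipose tissue in all 8 calves. In the quasi-likelihood test of edgeR over the 16 libraries, the difference was 0.60 in 5-HTP-supplemented calves (standard error 0.15, FDR = 0.00265) and 0.66 in CON calves (standard error 0.15, FDR = 0.00126). With the FDR threshold of 0.20, 36.4% of all features were higher in adipose tissue in supplemented calves and 36% in CON calves, and 67.7% and 67.4% were called in either direction.

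IFI47 could be compared between tissues only where it was present, in the 4 supplemented calves. Its ratio of adipose to muscle CPM was above 1 in each of them and ranged from 1.31 in calf 5 to 3.39 in calf 7. A value above 1 in all 4 of these calves was found in 35.8% of the features. The difference was 0.66 with a standard error of 0.58 (FDR = 0.354, quasi-likelihood test of edgeR), and its 95% interval ran from -0.47 to 1.79. When each calf entered the fit as a block, it was 0.81 with a standard error of 0.47 (FDR = 0.170, edgeR), under the threshold of 0.20. In that fit 35.7% of all features were higher in adipose tissue in supplemented calves and 34.9% in CON calves, and 66.6% and 65.2% were called in either direction. The mean within-calf difference was 0.83 ± 0.61 on the log2(CPM + 0.1) scale (SD, n = 4; two-sided exact sign-flip permutation test, p = 0.13, the smallest that 4 calves allow). In CON calves, the summed counts of 19 in adipose tissue and 4 in muscle were too few for a ratio.

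The size of these tissue differences was set in large part by the scale. When libraries were scaled to their totals in place of TMM, the median log2 difference of all features moved by 1.12 towards adipose tissue, from 0.14 to 1.25. On library totals, the difference of ENSBTAG00000004815 was 1.77 in 5-HTP-supplemented and 1.86 in CON calves, and that of IFI47 was 1.81 (standard error 0.61, FDR = 0.0141, edgeR). On that scale 73.1% of all features were called higher in adipose tissue in the supplemented calves and 72.8% in CON calves. The direction was the same on both scales for both genes, and the call for IFI47 was not.

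**Figure D3:**
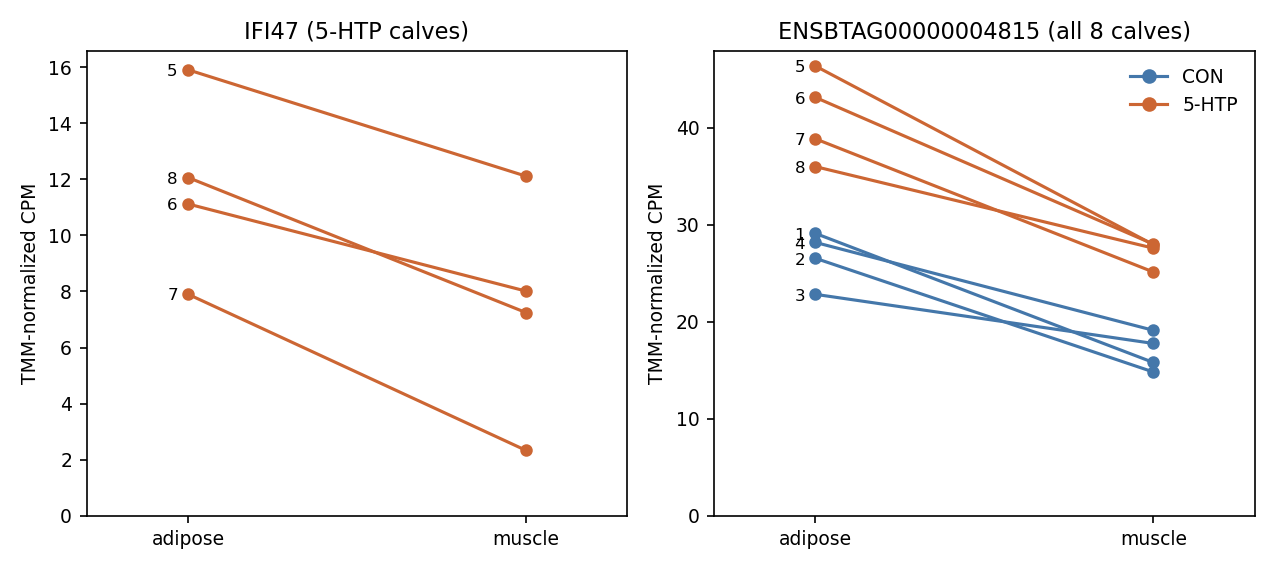
TMM-normalized CPM of IFI47 in the 4 5-HTP calves (left) and of ENSBTAG00000004815 in all 8 calves (right); each line joins the adipose and the muscle library of 1 calf, numbered at the left end, in blue for CON and orange for 5-HTP. Every line falls from adipose tissue to muscle, steepest in ratio for IFI47 in calf 7 (3.39).

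The effect of 5-HTP was then compared between the tissues with a tissue by treatment term. For ENSBTAG00000004815, the logFC in muscle less that in adipose tissue was 0.06 with a standard error of 0.21 and a 95% interval of -0.36 to 0.48 (FDR = 0.999997, quasi-likelihood test of edgeR). For this gene the difference between the tissues was smaller than its error. For IFI47, it was 0.71 with a standard error of 1.47 and an interval of -2.17 to 3.59 (FDR = 0.999997, edgeR), with CON calves at 19 and 4 counts in all. In this contrast 0% of the 21849 features were called by the quasi-likelihood test of edgeR, 819 (3.75%) had an unadjusted P value under 0.05, and 19 were called by the likelihood ratio test of edgeR and 10 by DESeq2. Without calf 1 the term for IFI47 was -1.20, and without calf 3 it was 4.71. These held 15 of the 19 CON counts in adipose tissue and all 4 in muscle.

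The order of the supplemented calves was partly shared. For IFI47, calf 5 was the highest and calf 7 the lowest in both tissues, and calves 6 and 8 changed places between them. Calves 6 and 8 differed in adipose tissue (11.1 and 12.1 CPM) and in muscle (8.01 and 7.25 CPM) by less than the SD of either group. For ENSBTAG00000004815, the order was 5, 6, 7, 8 from high to low in adipose tissue and 6, 5, 8, 7 in muscle, where the first 3 calves lay between 27.6 and 28.0 CPM. In muscle, calf 7 was thus the lowest supplemented calf for both genes, while in adipose tissue calf 8 was the lowest for ENSBTAG00000004815 and second for IFI47. In the adipose tissue of CON calves, the 2 calves with any IFI47 count, 1 and 4, were also those with the highest ENSBTAG00000004815. In the muscle of CON calves, IFI47 was counted in calf 3, which was second for ENSBTAG00000004815. The relation of the 2 genes within groups was not tested.

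The loci numbered around the pair were examined for the same contrast, in which they had not been chosen. Of the 20 merged loci numbered within 10 of either gene, 10 had no count in any library, 3 never exceeded 2 counts, and 7 were tested. Of the 10 loci after IFI47, 9 had no count. None of the 7 tested loci had an FDR at or under 0.20 for 5-HTP against CON in either tissue by the likelihood ratio test of edgeR, and by the quasi-likelihood test of edgeR and by DESeq2 the number was also 0. An unadjusted P value under 0.05 was found for 0 of the 7 in each tissue by both tests of edgeR. Among all features tested by the likelihood ratio test, 0.109% were called in adipose tissue and 0.201% in muscle, and the quasi-likelihood test called 0.00496% and 0.00592%, which is 1 feature in each tissue. At these shares 0 calls among 7 loci is near the background. Their logFC lay between -0.33 and 0.19 in adipose tissue and between -0.24 and 0.39 in muscle.

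Nearest to the pair on the side of ENSBTAG00000004815, ENSBTAG00000019651 had means in adipose tissue of 3.89 ± 0.639 CPM for CON and 4.14 ± 1.01 CPM for 5-HTP (SD, n = 4), a logFC of 0.09 with a standard error of 0.32. In muscle its logFC was -0.03 (standard error 0.37). The next locus, ENSBTAG00000042936, differed by 0.04 (standard error 0.45) in adipose tissue and by 0.39 (standard error 0.56) in muscle. On the side of IFI47, ENSBTAG00000049098 averaged 11.9 ± 1.28 and 10.6 ± 1.52 CPM for CON and 5-HTP in adipose tissue, and 26.1 ± 3.16 and 26.1 ± 2.44 CPM in muscle (SD, n = 4). Its logFC was -0.17 in adipose tissue (standard error 0.23) and 0.01 in muscle (standard error 0.18). The locus after it, ENSBTAG00000039986, had no count. The loci numbered next to the pair on both sides thus had a logFC within 1 standard error of 0 in both tissues, and their difference from ENSBTAG00000004815 (0.62 and 0.69) was not tested.

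**Figure D4:**
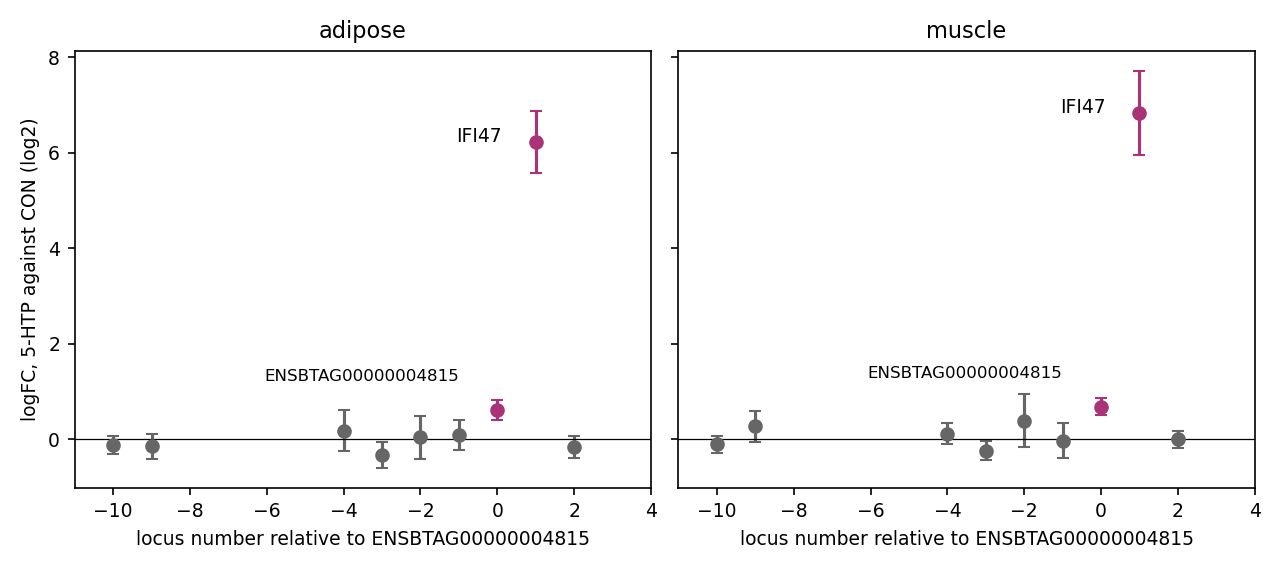
logFC of 5-HTP against CON on the log2 scale (likelihood ratio fit of edgeR) in adipose tissue (left) and muscle (right) for IFI47, ENSBTAG00000004815 (both purple) and the 7 tested neighbouring loci (grey), by locus number counted from ENSBTAG00000004815; bars are 1 standard error. The neighbours lie between -0.33 and 0.39, and IFI47 at 6.23 and 6.84.

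The neighbouring loci did not share 1 direction in the tissue contrast. In 5-HTP-supplemented calves, 5 of the 7 neighbouring loci passed the same threshold of edgeR's quasi-likelihood test, 2 higher in adipose tissue and 3 higher in muscle, against 67.7% of all features called in either direction. ENSBTAG00000049098 after IFI47 was higher in muscle, with a difference (adipose less muscle) of -1.29 (standard error 0.16, FDR = 2.59e-06, edgeR) in supplemented and -1.13 in CON calves. On library totals, 4 of 5 called loci were higher in adipose tissue and 1 in muscle, and ENSBTAG00000049098 was at -0.11 (FDR = 0.525, edgeR) in supplemented calves and 0.09 in CON calves.

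The features whose values over the 16 libraries were most like those of each gene were listed by Pearson's r of log2(CPM + 0.1), among 20533 loci. For IFI47, ENSBTAG00000004815 was second, with r = 0.78, and at place 3 by Spearman's rho (0.78). Ahead of it was XLOC_030324 (r = 0.79), a locus of at most 1.02 CPM, and behind it came XLOC_029934 (r = 0.77), XLOC_040608 (r = 0.75) and ENSBTAG00000051486 (r = 0.72). Of these, XLOC_029934 had means for CON and 5-HTP of 0.155 and 1.08 CPM in adipose tissue and of 0.326 and 1.91 CPM in muscle. Seen from ENSBTAG00000004815, the loci most alike were XLOC_021394 (r = 0.88), ENSBTAG00000006478 (r = 0.86), ENSBTAG00000053396 (r = 0.86), ENSBTAG00000004945 (r = 0.85) and XLOC_030324 (r = 0.84). IFI47 was at place 64 by Pearson's r, at 190 by Spearman's rho and at 53 by Pearson's r with a pseudocount of 1. These values describe 16 libraries that share 8 calves, 2 tissues and 2 treatments. The separation of the treatments, by which both genes were chosen, enters each of them. Nothing is therefore read from the place of either gene in the list of the other.

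Other genes of the interferon pathway could hardly be followed. Of 65 symbols listed for it, 1 (CISH, a feedback inhibitor of cytokine signalling through STAT proteins) could be paired with a feature, through the supplementary tables of the study. From those tables, 8 genes with immune functions were taken, CISH among them and IFI47 not, and entries without a symbol were left out. The study chose them on these samples. Of these 8, 0 were called higher in 5-HTP-supplemented calves in either tissue by the likelihood ratio test of edgeR. FUT7, an enzyme that makes selectin ligands on leukocytes, was lower in adipose tissue, and the 7 tested in muscle were all lower (logFC from -2.66 to -0.94). Among all features, that test called 0.109% in adipose tissue and 0.201% in muscle, in either direction. The choice by the study fixed these calls, so nothing is read from their number. By edgeR's quasi-likelihood test 0 of the 8 genes were called. The macrophage genes SIGLEC1 and C1QB, the leukocyte markers that could be named, had summed levels in adipose tissue of 42.5 to 62.7 CPM for CON and 12.7 to 59.0 CPM for 5-HTP. In muscle their sum was at 8.91 to 29.3 and 3.73 to 8.14 CPM. In muscle the sum was thus lower in every supplemented calf than in any CON calf. This separation held for SIGLEC1 alone but not for C1QB alone, which was higher in supplemented calf 6 than in CON calf 3. The share of all features that were lower without overlap was not determined. The part of these markers in the result for IFI47 was not tested. The markers were 2 of 7 listed, neither was at 0 in these groups, and both could be named only because the study lists them as different in muscle, which fixed their direction there.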

How the data were processed

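RNA was sequenced from adipose tissue and muscle of 8 calves. Per the labels and the paper's methods, the authors trimmed the reads (Trim Galore 0.4.4), used HISAT2 for mapping against ARS-UCD1.2, built a merged transcript set (Cufflinks 2.2.1) and counted uniquely mapped reads with htseq-count. The deposited values are whole-number counts for 44265 features, without normalization. The 2 genes, the lists and the tests were chosen with earlier results of these data known.

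Features reaching 10 counts in 4 or more libraries were kept (20167 in adipose tissue, 16878 in muscle, 21849 over 16 libraries). The paper's wording, which removes genes under 10 counts in 4 or more replicates, is stricter within a tissue and was an alternative. Treatments were compared in each tissue with the likelihood ratio test of edgeR 4.0.16 (R 4.3.3), as in the paper, and tissues over 4 groups with its quasi-likelihood test, with Benjamini-Hochberg FDR at or under 0.20. DESeq2 1.42.0 was an alternative. Standard errors come from the fitted models, and 95% intervals from them by the normal approximation. Single genes were compared by exact permutation tests in Python 3.11.15. The steps were tested on simulated data. No pair of libraries in a group agreed within sampling noise (chi-square per degree of freedom at least 22.9).

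The labels number the calves alike in both tissues, and these numbers were taken as the calf. The deviations of same-numbered libraries from their group means had r from -0.0789 to 0.188 over 21849 features, and 6 of 8 calves were matched best by their own number. In CON calves 1 and 2, the adipose library was closest to the muscle library of calf 3 and calf 1. Without both calves, the paired difference of ENSBTAG00000004815 was 0.55 (exact sign-flip permutation test, p = 0.0312).

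The genes named were the 2 genes, the 5 features most like each and the 2 nearest merged loci on either side. To these were added 8 genes with immune functions from the study's tables, and TTN (XLOC_017327) and IGFN1 as muscle markers. The locus labelled TTN lay between 19.5 and 89.98 CPM in muscle and had at most 11 counts in adipose tissue. The alternatives were normalization, filters, tests, DESeq2, the calf as a block, 1 row per merged locus, pseudocounts and leaving out each calf. Library totals in the tissue fits and leaving out calves 1 and 2 were added after the data were seen.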

Additional observations from a re-analysis of the deposited data

Results flagged for a closer look

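In 16 groups of 4 values (levels of each gene, their sum, and the share of IFI47, by tissue and treatment), 3 held a sample far from the others. Chance gives about 1 in 20 independent groups. These groups are not independent, since the sum and the share are built from the levels. A group with a count in 1 calf alone is always flagged, so the number of flags is not set against that rate. IFI47 in the muscle of CON calves was counted in calf 3 alone, at 0.231 CPM from 4 counts, and the share of 1.29% in the same library is the same observation. ENSBTAG00000004815 in the muscle of 5-HTP-supplemented calves was lowest in calf 7, at 25.1 CPM, where the other 3 calves lay close together.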

How the results depend on the processing

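Of 314 alternative values, 299 were taken as unchanged. They kept their direction and their side of the threshold, stayed within the spread between calves, or, for counts, within a set ratio. The 5-HTP against CON differences of the 2 genes were judged by logFC alone, so a gained or lost call there does not enter this number. The neighbouring loci called for 5-HTP against CON, which were 0 in every setting, do enter it. Leaving out 1 calf moved the logFC of IFI47 for 5-HTP against CON between 5.80 and 7.82 in adipose tissue, the latter without calf 1, and between 6.42 and 9.97 in muscle, the latter without calf 3, which leaves IFI47 without any CON count in muscle. IFI47 was not tested in muscle under the paper's wording of the filter, since all 4 CON libraries were under 10 counts. The study nevertheless lists IFI47 for muscle. The logFC of ENSBTAG00000004815 stayed between 0.55 and 0.68 in adipose tissue and between 0.63 and 0.76 in muscle. With the calf as a replicate block, the tissue difference of IFI47 in 5-HTP-supplemented calves was 0.81 (FDR = 0.170, edgeR), past the threshold, as it was on library totals (1.81). No other call changed with the block, by which the tissue by treatment term was 0.16 for IFI47 and 0.07 for ENSBTAG00000004815. Leaving out 1 calf gave 0.51 to 0.82 for the tissue difference of IFI47 and, for the tissue by treatment term, -1.20 to 4.71 for IFI47 and -0.01 to 0.16 for ENSBTAG00000004815, which was -0.0120 without calf 1 and -0.00271 without calf 8. Without calf 7 the difference of the share between tissues was -0.712 percentage points, and the range was -0.712 to 3.66. The features called for the tissue by treatment term were 19 with the likelihood ratio test of edgeR, 10 with DESeq2, 1 without a filter, and 0 to 1 with 1 calf left out. Of the 5 loci most like IFI47, 1 was kept with Spearman's rho and 3 with a pseudocount of 1, and of those most like ENSBTAG00000004815, 2 with Spearman's rho. The cause of these changes was not tested beyond the counts given.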
